A study of Mus musculus with 24 samples.

Results

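The clock output and REV-ERB/ROR loop genes were 10 transcripts taken by gene symbol from a table of 55487 genes: *Dbp*, *Tef*, *Hlf*, *Nfil3*, *Nr1d1*, *Nr1d2*, *Rora*, *Bhlhe40*, *Bhlhe41* and *Ciart*. They were followed in AML-12, a mouse hepatocyte line from a mouse with a transforming growth factor alpha transgene, in 24 BRB-seq libraries (barcoded, pooled sequencing of mRNA 3′ ends) of 6 groups of 4. Cells of the 6 groups were kept without dexamethasone and in charcoal-treated serum. BSA had albumin carrier alone and no esiRNA, an enzyme-cut pool of short interfering RNAs. PAL had 0.25 mM palmitate for 48 hours and no esiRNA. The others had the same palmitate plus lipofected esiRNA for the last 24 hours: 200 nM against *Egfp* in CON, 100 nM against *Bmal1* in BMAL1, 100 nM against *Chrebp* in CHREBP, and both of these in BOTH at 200 nM in total. CON and BOTH thus had equal esiRNA doses, as had BMAL1 and CHREBP. Where 1 of *Bmal1* or *Chrebp* esiRNA alone was compared with CON or with BOTH, total dose cannot be told apart from the target. Each group gave 1 collection time, so levels were measured and rhythms were not. The labels do not say whether the 4 libraries of a group came from separate cultures, and every p below measures the spread between these libraries, which may be technical.

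The mammalian clock is a set of linked feedback loops. BMAL1 and CLOCK bind E-boxes and switch on the REV-ERB repressors (*Nr1d1*, *Nr1d2*), the PAR bZIP activators (*Dbp*, *Tef*, *Hlf*), the DEC repressors (*Bhlhe40*, *Bhlhe41*) and the repressor CHRONO (*Ciart*). REV-ERBs and the activator RORα (*Rora*) compete for one element, through which they set *Bmal1* and *Nfil3*, and E4BP4 (*Nfil3*) represses the D-boxes that the PAR bZIP factors activate, which in liver include genes of detoxification and lipid handling.

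Depth ran from 5399700 to 11237474 gene counts per library. Values are DESeq2 normalized counts (counts divided by a size factor), which compare libraries but not genes, and fewer cells and less RNA per cell cannot be told apart in them. BSA and PAL were in library column 1, CON and BMAL1 in column 2, CHREBP and BOTH in column 3, the second of each pair in the lower rows. Column therefore cannot be told apart from *Chrebp* esiRNA, nor row from palmitate or *Bmal1* esiRNA. Row and column both differed in CON against PAL, where neither can be told apart from transfection. They also both differed in BOTH against CON and in CHREBP against BMAL1, where neither can be told apart from the esiRNAs. All 12 hepatocyte markers listed had a mean of at least 3 counts over the 24 libraries, as had 4 of 5 cholangiocyte markers (*Krt7*, *Krt19*, *Sox9*, *Cftr*), 2 of 5 macrophage markers (*Cd68* at 5 to 27 counts, *Csf1r* at 0 to 17), 1 of 5 stellate cell markers (*Col1a1* at 1 to 10) and 0 of 4 endothelial markers. Of the hepatocyte markers, *Apoa1* had only 2 to 15 counts, *Apoa2* 0 to 9 and *Asgr1* 0 to 8. The other hepatocyte markers ran from 40 counts (lowest, *Cebpa*) to 11326 (highest, *Trf*), with *Alb* at 86 to 242. Of the cholangiocyte markers, *Krt19* had 1541 to 4154 counts, *Sox9* 1338 to 2891, *Krt7* 223 to 634 and *Cftr* 9 to 50. *Adgre1* and *Clec4f* (macrophage), *Pdgfrb* and *Lrat* (stellate cell) and *Cdh5* and *Kdr* (endothelium) were at 0 in every library. The *Bmal1* transcript (*Arntl*) was 44.7 ± 11.6 in CON, 26.0 ± 4.82 in BMAL1 and 22.8 ± 6.64 in BOTH (SD, n = 4). For *Arntl* the log2 fold change against CON was -0.78 in BMAL1 (SE 0.28), where DESeq2 gave no *Padj*, and -0.98 in BOTH (DESeq2 *Padj* = 0.00994). The *Chrebp* transcript (*Mlxipl*) was 35.6 ± 7.26 in CON, 25.9 ± 4.75 in CHREBP, which did not pass the test (DESeq2 *Padj* = 0.593), and 17.0 ± 4.91 in BOTH (DESeq2 *Padj* = 0.00762).

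RefSeq promoter windows on GRCm38.p6, from 250 bases before the start to 50 after it, were on hand for 9 members, with 10 windows. The windows of *Nfil3* and *Ciart*, the members with a called difference, are shown from 250 to 5 bases before the start, with motif matches in capitals. The *Nfil3* stretch lies at chr13:52981044-52981289 on the - strand and the *Ciart* stretch at chr3:95882233-95882478 on the - strand. GENCODE places 30 and 19 of their last bases in the first exon.
Nfil3: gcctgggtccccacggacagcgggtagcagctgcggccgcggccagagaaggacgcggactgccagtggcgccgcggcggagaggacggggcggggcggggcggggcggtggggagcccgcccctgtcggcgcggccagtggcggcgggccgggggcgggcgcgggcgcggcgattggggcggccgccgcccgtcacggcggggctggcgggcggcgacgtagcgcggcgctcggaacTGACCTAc
Ciart: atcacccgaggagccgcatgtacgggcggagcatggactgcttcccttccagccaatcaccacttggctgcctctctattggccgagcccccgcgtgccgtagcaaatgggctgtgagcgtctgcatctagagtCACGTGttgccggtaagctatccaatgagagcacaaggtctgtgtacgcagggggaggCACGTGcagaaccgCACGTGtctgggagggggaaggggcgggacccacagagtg
The capitals in *Nfil3* are the REV-ERB/ROR element core, read on the other strand, 12 bases before the start. Those in *Ciart* are 3 E-boxes, at 116, 58 and 44 bases before the start. The search took the E-box CACGTG, the E′-box CACGTT, the core TAGGTCA or TGGGTCA, and the D-box TTATGTAA, TTATATAA, TTACGTAA or TTACATAA, on both strands, with no letters shared between motif types at a match. Of all 32851 windows, 7.15% held the E-box, 4.68% the E′-box, 6.45% the core and 1.59% the D-box. Among the other members, *Tef* had an E-box in each of its windows (127 and 138 bases before the start), *Bhlhe41* had 1 at 153 bases, and *Nr1d1* had an E′-box at 28 bases. The windows of *Dbp*, *Hlf*, *Nr1d2* and *Rora* held none of these letters, and no member window held the D-box. A match is a description of letters and not a bound site.

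Differences in the output genes were few. *Nfil3* rose when both esiRNAs were given, to 1.44-fold of CON, and *Ciart*, at very low counts, rose with palmitate. No member passed the test when *Bmal1* or *Chrebp* esiRNA was given alone, or when CON was compared with PAL. Members were called at a DESeq2 *Padj* under 0.1, adjusted over the genes that independent filtering kept (8500 to 13883 by comparison), and 9 of 10 passed the filter of 25 summed counts in each comparison, all but *Hlf*. In PAL against BSA, 1 of the 9 was called, *Ciart*, against 14.3% of all genes. In BOTH against CON, *Nfil3* alone was called, against 9.73% of all genes. It was also the 1 member called in BOTH against BMAL1 (10.4% of all genes), in BOTH against CHREBP (0.994% of all genes, with a *Padj* for 5 of the 9 members) and in the likelihood ratio test over the 4 esiRNA groups (9.92% of all genes, DESeq2 *Padj* = 7.75e-07). Apart from BOTH against CHREBP, 1 of 9 was close to the share of all genes. The call in BOTH against CHREBP was of the same gene, with 0 members called by edgeR. The counts do not set the members apart.

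The remaining comparisons called no member. DESeq2 called 0 in CON against PAL, where 2.51% of all genes were called, with 1 member at an unadjusted p under 0.05 and 0 called by edgeR. In BMAL1 against CON, where only 0.490% of all genes were called, it called 0, with 0 at an unadjusted p under 0.05 and 0 by edgeR, and only 4 of the 9 members had a *Padj*. CHREBP against CON likewise had 0 called members (3.42% of all genes) of 8 with a *Padj*, 0 at an unadjusted p under 0.05 and 0 by edgeR. For CHREBP against BMAL1 the numbers were 0 called (3.82% of all genes), 1 at an unadjusted p under 0.05 and 0 by edgeR. The interaction asks whether *Bmal1* esiRNA acts differently when *Chrebp* esiRNA is present. It had 0 called (1.47% of all genes), 1 at an unadjusted p under 0.05 and 0 by edgeR, and only 5 of the 9 members had a *Padj*. Adding *Bmal1* esiRNA raised the total dose from CHREBP to BOTH and lowered it from CON to BMAL1. The interaction therefore cannot be told apart from dose.

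**Figure D1:**
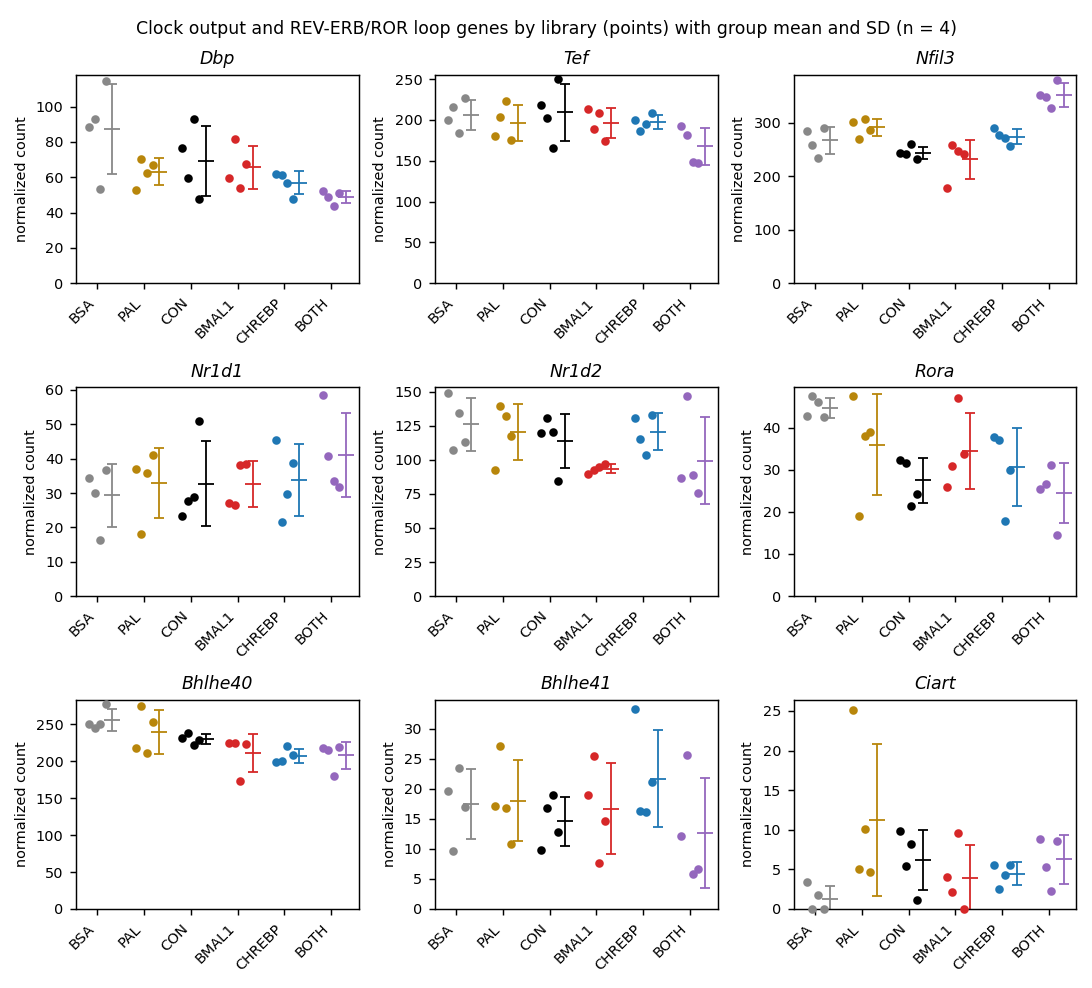
Normalized counts (vertical axis, from 0) of the 9 tested members in each of the 24 libraries, as points by group, with the group mean and SD (n = 4) beside them. The 4 BOTH libraries of *Nfil3*, from 327 to 380.2, sit above the 20 others, and the *Ciart* panel shows 1 PAL library at 25.1 with the rest of the 24 at or under 10.1.

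*Nfil3* (ENSMUSG00000056749) lies on GRCm38 chromosome 13, 52967209 to 52981073, on the - strand, and overlaps no other annotated gene. It encodes E4BP4, the D-box repressor. Its normalized counts were 285, 259, 234 and 290.0 in BSA and 301, 271, 307 and 287 in PAL. In CON they were 243, 241, 259.9 and 233, and in BMAL1 178, 259, 248 and 241. CHREBP had 290.2, 276, 272 and 257, and BOTH had 353, 347, 327 and 380.2. All BOTH libraries were above all others, BMAL1 and CON overlapped, and CHREBP lay in between, with its lowest library inside the range of CON. How many of all genes had BOTH above every other group was not counted.

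The *Nfil3* mean was 352 ± 22.0 in BOTH and 244 ± 11.3 in CON (SD, n = 4). BOTH was higher by 0.52 on the log2 scale (SE 0.10, 95% interval 0.32 to 0.73, DESeq2 *Padj* = 2.24e-05), with no overlap, as for 6.42% of all genes in that direction. Against BMAL1 (232 ± 36.6) the log2 fold change in BOTH was 0.59 (SE 0.11, DESeq2 *Padj* = 1.16e-06), again with no overlap, as for 6.83% of all genes. Relative to CHREBP (274 ± 13.7) it was 0.36 (SE 0.10, DESeq2 *Padj* = 0.0552), with no overlap between the groups, as for 1.94% of all genes in that direction. The call against CHREBP was lost with edgeR (*Padj* = 0.185), in a fit with a block for replicate number (DESeq2 *Padj* = 0.116), and when BOTH replicate 2 or 4 or CHREBP replicate 2, 3 or 4 was left out (DESeq2 *Padj* up to 0.243, log2 fold change 0.32 to 0.37). Against CON and BMAL1 it held in each alternative and without any 1 library. The 3 comparisons share the BOTH libraries.

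Given alone, neither esiRNA gave a called difference in *Nfil3*: the log2 fold change against CON was -0.07 in BMAL1 (95% interval -0.28 to 0.14) and 0.16 in CHREBP (95% interval -0.05 to 0.37). The interaction was 0.43 (SE 0.15, 95% interval 0.14 to 0.73, DESeq2 *Padj* = 0.148), which did not pass, and which passed with all 24 libraries in one fit (DESeq2 *Padj* = 0.0981). Transfection of the control esiRNA went the other way, at -0.25 for CON against PAL (SE 0.10, DESeq2 *Padj* = 0.26). The CON and PAL libraries of *Nfil3* did not overlap, as for 2.99% of all genes in that direction (exact permutation p = 0.0286, the smallest that 4 against 4 libraries allow, 1 of 72 such tests). The order of the group means was BMAL1, CON, BSA, CHREBP, PAL, BOTH, and of neighbours in it, only PAL and BOTH had ranges that did not overlap. For that pair no share of all genes was taken.

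An interferon response differed between the same groups. The normalized counts of 12 interferon-response genes, summed per library, reached no more than 359.8 without transfection (BSA from 266, PAL 232 to 284). With *Egfp* esiRNA they ran from 819 to 7413 and with *Bmal1* esiRNA from 905 to 1468. Both groups with *Chrebp* esiRNA were far higher, CHREBP at 23598 to 49710 and BOTH at 46926 to 78736. All 12 were called higher in CHREBP and in BOTH against CON, and 0 of 12 in BOTH against CHREBP, where all 12 had a log2 fold change above 0 and 10 had a *Padj* (DESeq2, with 2 at an unadjusted p under 0.05 and 0 called by edgeR, with median differences of 2.94, 3.81 and 0.90 on the log2 scale). Among the transfected groups, the mean of the list and that of *Nfil3* had the same order, lowest in BMAL1 and then CON, CHREBP and BOTH. The *Nfil3* step between BMAL1 and CON was smaller than its SE (-0.07, SE 0.11). With 1 library left out it ran from -0.12 to 0.026, so that its sign is not settled. Between PAL and CON the order was opposite, with the sum higher and *Nfil3* lower in each CON library. In CON against PAL, 8 of 10 tested were called higher (10 by edgeR), and in BMAL1 against CON 7 of 12 were called lower (3 by edgeR), although CON replicate 1, at 819, was below each BMAL1 library and the other CON libraries ran from 3578. Hepatocyte markers also differed, with 4 of 12 called lower and 1 higher in BOTH against CON by DESeq2 (*Padj* under 0.1), where 9.73% of all genes were called in either direction. Their summed normalized counts were 11677 to 14083 in BOTH against 13782 to 15007 in CON. The part of either list in the *Nfil3* difference was not tested.

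**Figure D2:**
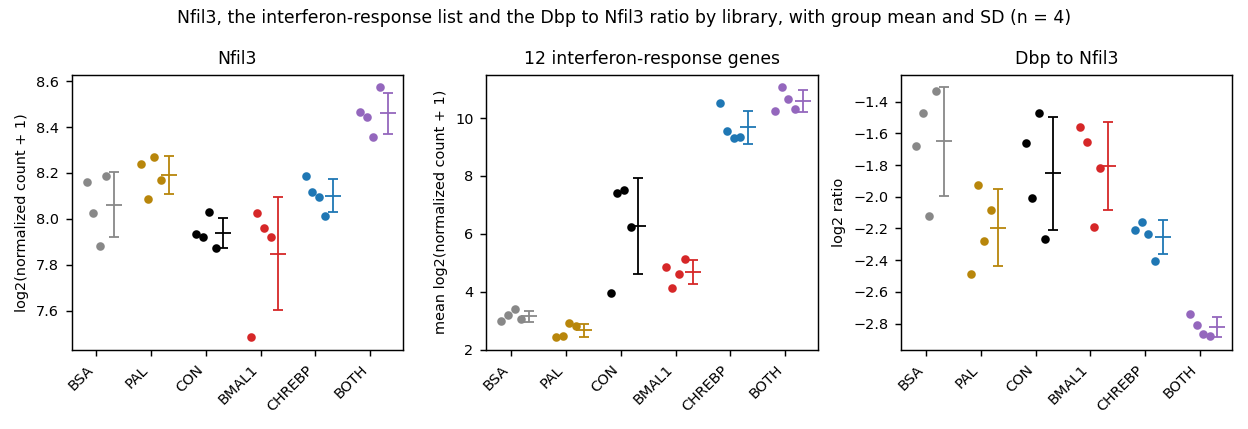
Points are the 24 libraries by group with mean and SD (n = 4): left, *Nfil3* as log2(normalized count + 1); middle, the mean of that quantity over 12 interferon-response genes; right, the log2 ratio of *Dbp* to *Nfil3*. *Nfil3* stands apart in BOTH, the interferon list is high in CHREBP (9.31 to 10.5) and has a higher mean in BOTH (10.2 to 11.1), and the ratio is lowest in BOTH, at -2.88 to -2.74.

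The PAR bZIP activators share the D-box with E4BP4. *Dbp* (ENSMUSG00000059824; chromosome 7, 45705088 to 45710203, + strand) overlaps *Sphk2* on the other strand. Its normalized counts were 88.2, 92.8, 53.2 and 115 in BSA and 52.8, 70.4, 62.6 and 66.9 in PAL. In CON they were 76.3, 59.3, 92.9 and 47.5, and in BMAL1 59.7, 81.8, 53.6 and 67.6. CHREBP had 62.0, 61.1, 57.0 and 47.6, and BOTH had 52.0, 48.6, 43.9 and 50.9. BSA and CON each held both a high and a low library, while BOTH was narrow and low, with all 4 libraries under those of BMAL1 and 1 CON library inside its range.

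No *Dbp* difference was called. The log2 fold change was -0.44 for PAL against BSA (SE 0.22, DESeq2 *Padj* = 0.22), and without BSA replicate 3, the low one, it was -0.61 and called (DESeq2 *Padj* = 0.0423), while without BSA replicate 4 it was -0.29 (DESeq2 *Padj* = 0.551). For BOTH against CON it was -0.51 (SE 0.22, DESeq2 *Padj* = 0.153). That value passed with total-count scaling (DESeq2 *Padj* = 0.0992) and without CON replicate 4 (-0.64, DESeq2 *Padj* = 0.0513), and moved to -0.33 without CON replicate 3. BOTH and BMAL1 did not overlap, as for 4.46% of all genes in that direction (log2 fold change -0.43, DESeq2 *Padj* = 0.259). With *Bmal1* esiRNA alone, *Dbp* differed from CON by -0.08 (95% interval -0.49 to 0.33), so that a fall of up to 0.49 on the log2 scale remains inside the interval.

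*Tef* (ENSMUSG00000022389; chromosome 15, 81802421 to 81826863, + strand, overlapping *Gm17597* on the other strand) was steadier. Its normalized counts were 218, 202, 166 and 250.4 in CON and 192, 182, 149 and 148 in BOTH. The groups overlapped, with 1 CON library below 2 of BOTH. The other 4 groups had means from 196 to 206, inside the range of CON. For BOTH against CON the log2 fold change was -0.31 (SE 0.13, DESeq2 *Padj* = 0.153), which passed with total-count scaling (DESeq2 *Padj* = 0.0813), without CON replicate 3 (-0.41, DESeq2 *Padj* = 0.0395) and without BOTH replicate 1 (-0.38).

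*Hlf* (ENSMUSG00000003949; chromosome 11, 90336536 to 90390895, - strand), the third PAR bZIP gene, had 2 counts in total, 1 in BSA replicate 2 and 1 in CON replicate 3, and 0 in the other 22 libraries. The 3 counts taken as the floor of detection correspond to 2.02 to 4.24 normalized counts, and *Hlf* was not detectable at this depth.

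Set against each other within a library, the D-box activator *Dbp* and the D-box repressor *Nfil3* gave a mean log2 ratio of -1.65 ± 0.34 in BSA and -2.19 ± 0.24 in PAL (SD, n = 4). The transfected groups had -1.85 ± 0.36 (CON), -1.80 ± 0.28 (BMAL1), -2.25 ± 0.11 (CHREBP) and -2.82 ± 0.06 (BOTH). These ratios serve to compare libraries. All 4 BOTH libraries were lower than the other 20, the nearest of which was a PAL library at -2.49. This was a description of 2 members already given and carries no test of its own.

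The REV-ERB and ROR genes were called in none of the comparisons. *Nr1d1* (ENSMUSG00000020889; chromosome 11, 98767932 to 98775333, - strand), REV-ERBα, overlaps *Thra* on the other strand, so that its counts are uncertain without strand. Its normalized counts ran from 16.2 to 58.6 over the 24 libraries, with group means from 29.3 ± 9.16 in BSA to 41.1 ± 12.3 in BOTH (SD, n = 4), and no neighbouring means in the order differed by more than their SD. For BMAL1 against CON its log2 fold change was 0.03 with a 95% interval from -0.56 to 0.62. A fall of up to 0.56 on the log2 scale, of a gene known as a direct target of BMAL1, remains inside that interval.

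*Nr1d2* (ENSMUSG00000021775; chromosome 14, 18204054 to 18239127, - strand), REV-ERBβ, overlaps no other gene. It had 119, 131, 120.1 and 84.6 normalized counts in CON, 89.6, 92.4, 94.8 and 96.9 in BMAL1, 131, 115, 104 and 133 in CHREBP, and 86.3, 147, 88.9 and 75.8 in BOTH. BMAL1 was the narrowest of these groups and BOTH the widest, with replicate 2 alone above 89. The log2 fold change was -0.29 for BMAL1 against CON (SE 0.19, 95% interval -0.66 to 0.08, DESeq2 *Padj* = 0.822). BOTH against CON gave -0.20 (DESeq2 *Padj* = 0.66), and -0.46 without BOTH replicate 2, which was called (DESeq2 *Padj* = 0.0899), while without BOTH replicate 4 it was -0.08. CHREBP was above BMAL1 in each library, as for 5.05% of all genes, by 0.36 (SE 0.19, DESeq2 *Padj* = 0.485).

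*Rora* (ENSMUSG00000032238; chromosome 9, 68653786 to 69388246, + strand, overlapping *Gm15511* on the other strand), the activator of the loop, had group means from 24.4 ± 7.11 in BOTH to 44.7 ± 2.42 in BSA (SD, n = 4). The 4 BSA libraries lay between 42.4 and 47.4 and the 4 CON libraries between 21.4 and 32.3, while PAL spanned 19.1 to 47.5. BSA and CON differ in palmitate, transfection and library column. They were not tested against each other, and no share of all genes was taken for that pair. Its log2 fold change was -0.32 for PAL against BSA (DESeq2 *Padj* = 0.562) and -0.37 for CON against PAL (DESeq2 *Padj* = 0.748). BMAL1 against CON gave 0.33 with a 95% interval of -0.26 to 0.92.

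Within a library the log2 ratio of *Nr1d1* to *Rora*, repressor to activator of the same element, was -0.65 ± 0.56 in BSA and 0.74 ± 0.50 in BOTH (SD, n = 4). The other groups had means between, of -0.11 ± 0.18 (PAL), -0.06 ± 0.22 (BMAL1), 0.14 ± 0.63 (CHREBP) and 0.20 ± 0.66 (CON). These 4 groups overlapped one another, and the ratio is a description of 2 members with no test.

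**Figure D3:**
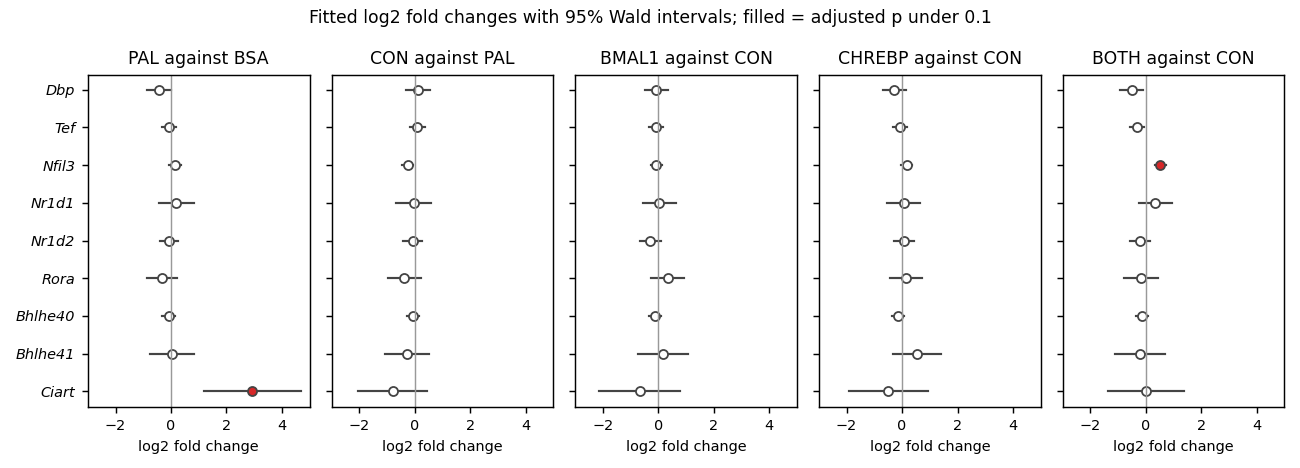
Fitted log2 fold changes (horizontal axis) of the 9 tested members in 5 comparisons, with 95% Wald intervals, and filled points where the DESeq2 adjusted p was under 0.1. *Ciart* in PAL against BSA (2.94) and *Nfil3* in BOTH against CON (0.52) are filled, and the intervals are narrow for *Nfil3*, *Tef* and *Bhlhe40* and wide for *Ciart* and *Bhlhe41*.

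The DEC repressors bind E-boxes in competition with BMAL1 and CLOCK. *Bhlhe40* (ENSMUSG00000030103; chromosome 6, 108660629 to 108666925, + strand, overlapping *0610040F04Rik* on the other strand) had 232, 239, 222 and 228 normalized counts in CON. BMAL1 had 224, 224, 173 and 223, CHREBP had 199, 199.7, 220.4 and 208, and BOTH had 218, 215, 180.2 and 219. All CHREBP and BOTH libraries were below the lowest of CON. The share of all genes without overlap in this direction was 3.57% for CHREBP and 4.50% for BOTH. The log2 fold changes against CON were small, at -0.16 in CHREBP (SE 0.11, DESeq2 *Padj* = 0.69) and -0.15 in BOTH (SE 0.11, DESeq2 *Padj* = 0.544), and neither was called. BMAL1 against CON gave -0.13, with a 95% interval of -0.35 to 0.09.

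*Bhlhe41* (ENSMUSG00000030256; chromosome 6, 145858243 to 145865558, - strand, overlapping *Gm43909* on the other strand) had 5 to 30 counts per library and group means from 12.6 ± 9.15 normalized counts in BOTH to 21.7 ± 8.01 in CHREBP (SD, n = 4), with overlap between each pair of groups. The difference nearest the threshold was -0.75 for BOTH against CHREBP (SE 0.45), which DESeq2 gave no *Padj* and for which the exact permutation test gave p = 0.143. The *Bhlhe40* to *Bhlhe41* log2 ratio ranged from 3.25 ± 0.50 in CHREBP to 4.16 ± 0.84 in BOTH (SD, n = 4).

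*Ciart* (ENSMUSG00000038550; chromosome 3, 95878503 to 95882251, - strand, overlapping *C920021L13Rik* on the other strand) encodes CHRONO, which represses BMAL1 and CLOCK. It was the least counted of the tested members, with 133 counts in 24 libraries. Raw counts were 4, 0, 2 and 0 in BSA and 19, 5, 9 and 6 in PAL, which is 1.31 ± 1.65 and 11.2 ± 9.57 normalized counts (SD, n = 4). Each PAL library was above each BSA library, as for 6.82% of all genes, and PAL replicate 1 held 19 of the 39 PAL counts. With counts summed by group, PAL was 6.64 times BSA (exact 95% interval 2.79 to 19.2, which covers counting error only). DESeq2 gave a log2 fold change of 2.94 (SE 0.90, *Padj* = 0.0142), and edgeR *Padj* was 0.0218. Without PAL replicate 1 the value was 2.21 and DESeq2 gave no *Padj*, so that the gene could not be called without that library. The raw counts of the other PAL libraries, 5, 9 and 6, were still above each BSA library. Without BSA replicate 1 the log2 fold change was 4.0, and a filter of 10 counts in 4 libraries removed the gene. In the same comparison 5 of 11 hepatocyte markers tested were called lower and 0 higher (DESeq2), where 14.3% of all genes were called in either direction. The summed normalized counts of all 12 listed markers were 17388 to 19272 in BSA and 12383 to 14169 in PAL. The part of this in the *Ciart* difference was not tested.

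In the transfected groups *Ciart* had 11, 8, 10 and 1 raw counts in CON, 3, 2, 10 and 0 in BMAL1, 5, 3, 5 and 5 in CHREBP, and 8, 6, 2 and 9 in BOTH. These groups overlapped each other. CON against PAL was -0.79 on the log2 scale (95% interval -2.04 to 0.46), and BMAL1 against CON was -0.67 (95% interval -2.13 to 0.79), so that neither a fall nor an equal level could be told at this depth.

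Taken as a list, the 9 tested members had a median log2 fold change near that of all genes in most comparisons. It was -0.06 in PAL against BSA (all genes 0.00), -0.08 in CON against PAL (all genes 0.00), -0.08 in BMAL1 against CON (all genes 0.00, 3 of 9 above 0) and 0.06 in CHREBP against CON (all genes 0.00). In BOTH against CON it was -0.19 (all genes -0.01), with 3 of 9 above 0, and in BOTH against CHREBP -0.22 (all genes 0.00), with 4 of 9 above 0. Median sizes without sign were 0.13 for the members and 0.12 for all genes in BMAL1 against CON, and 0.20 and 0.16 in BOTH against CON. They were further apart in BOTH against CHREBP, at 0.29 and 0.12, and in BOTH against BMAL1, at 0.37 and 0.17. Each of these member medians is the value of 1 low-count gene and is smaller than its SE. The genes are *Nr1d1* (0.29, SE 0.30) against CHREBP and *Bhlhe41* (-0.37, SE 0.46) against BMAL1. With sign, the median in BOTH against BMAL1 was -0.02 (all genes -0.02).

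The rest of the clock was taken from a list of 10 other clock genes. In PAL against BSA, where 14.3% of all genes were called, 2 of 8 tested were called lower and 0 higher (3 called by edgeR): *Per3* (log2 fold change -0.81, SE 0.27, DESeq2 *Padj* = 0.0247) and *Per2* (-0.42, SE 0.16, *Padj* = 0.0749), both repressors of the core loop. BOTH against CON called 3 of 9 (9.73% of all genes), with *Per1* (0.75, SE 0.25, DESeq2 *Padj* = 0.0362) and *Cry1* (0.70, SE 0.24, *Padj* = 0.0465) higher and *Arntl* lower. The same genes had log2 fold changes of 0.53 (*Per1*, SE 0.25) and 0.64 (*Cry1*, SE 0.24) in BMAL1 against CON, where DESeq2 gave a *Padj* to only 3 of 9 and to neither of them, and where they and *Arntl* were the 3 at an unadjusted p under 0.05. The other 6 pairwise comparisons called 0 of this list with DESeq2 and 0 with edgeR, with 0 to 3 at an unadjusted p under 0.05.

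Of 14 genes listed as clock-controlled targets, 10 were tested. *Nampt*, the rate-limiting enzyme of NAD salvage, was called most often, with normalized counts of 231 to 421 in CON and 234 to 293 in BMAL1. *Chrebp* esiRNA groups had 700.3 to 1095 (CHREBP) and 969.7 to 1526 (BOTH). Its log2 fold change was 0.71 in CON against PAL, 1.18 in CHREBP against CON, 1.74 in BOTH against CON and 1.07 for the interaction (DESeq2 *Padj* = 0.000243, 3.84e-06, 2.91e-14 and 0.0351). *Nampt* thus differed with the groups in which the interferon list was high, and the part of that response was not tested. *Upp2*, a uridine phosphorylase, was lower than CON in CHREBP (-0.52, SE 0.17, DESeq2 *Padj* = 0.0691) and in BOTH (-0.79, SE 0.18, *Padj* = 0.000251). *Usp2*, a ubiquitin-specific protease, was called lower in BOTH against CON by DESeq2 (*Padj* = 0.094) and not by edgeR (*Padj* = 0.129), on 3 against 31 counts, a ratio of 0.115 (exact 95% interval 0.0224 to 0.368, counting error only), and CON itself ran from 1.16 to 16.2 normalized counts. The *Usp2* call held with TMM scaling and in 5 of 16 fits with 1 library left out, and was lost with the replicate block (DESeq2 *Padj* = 0.123) and with no filter (0.112). DESeq2 gave *Usp2* no *Padj* with total-count scaling, with all 24 libraries or with the 2 groups alone.

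With palmitate alone, *Tspan4*, a tetraspanin, exceeded its BSA level in PAL by 0.18 on the log2 scale (SE 0.06, DESeq2 *Padj* = 0.0267). The cell cycle inhibitor *Cdkn1a* was lower in CON than in PAL by -0.25 (SE 0.08, DESeq2 *Padj* = 0.0651), as a difference on the log2 scale. DESeq2 and edgeR each called 0 targets in BMAL1 against CON (0.490% of all genes), where 7 of 10 had a *Padj*, with 1 of 10 at an unadjusted p under 0.05 in DESeq2.

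**Figure D4:**
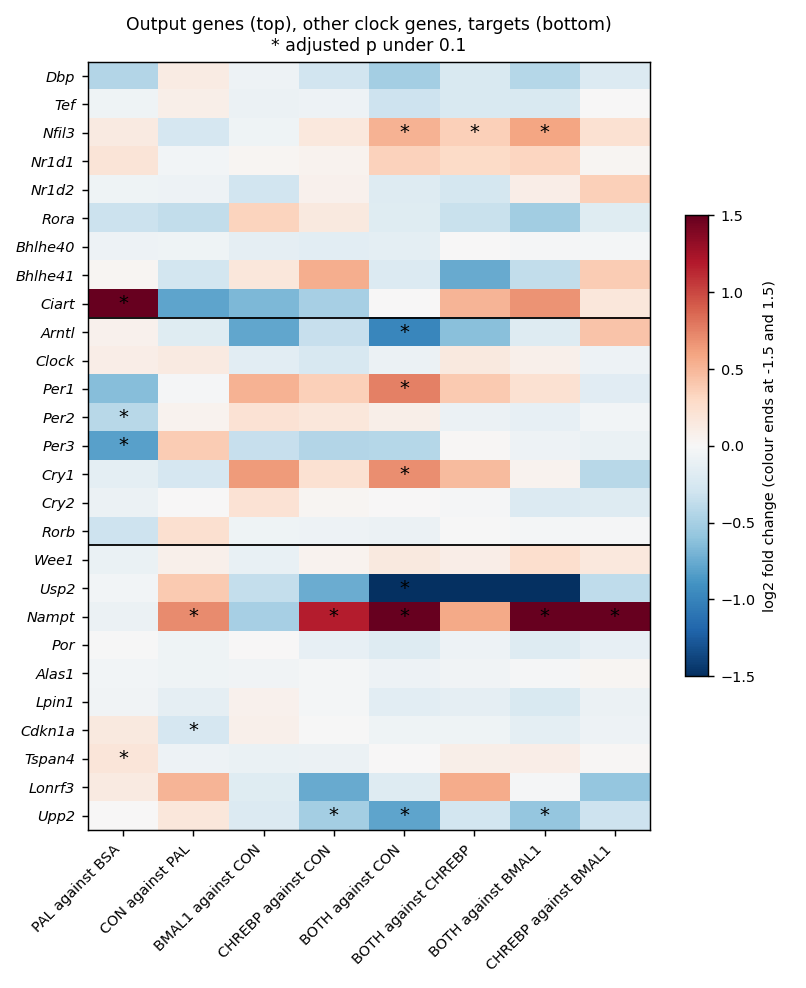
Log2 fold changes as colour (red higher, blue lower, colour ending at -1.5 and 1.5) of 27 genes in 8 comparisons: 9 output and loop genes, 8 other clock genes and 10 clock-controlled targets, with an asterisk where the DESeq2 adjusted p was under 0.1. The asterisks of the top block fall on *Ciart* in PAL against BSA and on *Nfil3* in the 3 comparisons of BOTH.

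The genes whose group means were most like those of *Nfil3* were *Pitpnc1*, a phosphatidylinositol transfer protein, and *Plekha2*, a pleckstrin homology domain protein. Likeness was the root mean square difference of the centred log2 group means over the 6 groups, among 9380 genes with a mean of at least 50 normalized counts. It was 0.0517 for *Pitpnc1* and 0.0576 for *Plekha2*, against a median of 0.222 over all these genes. The difference from CON in BOTH was 0.48 for *Pitpnc1* and 0.45 for *Plekha2* on the log2 scale, and -0.05 and -0.07 in BMAL1.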

How the data were processed

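The authors separated the reads by barcode with BRB-seq tools and mapped them by STAR to mm10. HTSeq gave the gene counts, though featureCounts is also named. The deposited values are raw counts per gene and library. Versions, annotation, strand and the use of molecular identifiers are not given in the sources used here. Libraries were grouped by the labels. The study's tool, DESeq2 (here 1.42.0, under R 4.3.3), was run on genes with at least 25 summed counts: Wald tests on 8 libraries for PAL against BSA and CON against PAL, and on the 16 esiRNA libraries otherwise, with a likelihood ratio test over the 4 groups. *Padj* is Benjamini-Hochberg over the genes that independent filtering kept and NA for the others. Exact permutation tests were 2-sided, 72 in number. Logs used a pseudocount of 1. The script was tested on simulated data.

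Alternatives were the edgeR 4.0.16 quasi-likelihood test, TMM and total-count scaling, no filter, at least 10 counts in 4 libraries, a replicate block, all 24 libraries in 1 fit, the 2 groups alone, and leaving out each library. The 10 members, the lists and the tests were chosen with earlier results of these data known. For each of both clock lists, 1 gene is not reported here. Named were the members, *Arntl*, *Mlxipl*, called genes of both clock lists (at most 4 per comparison, by size) and the 2 genes most like each called member with a mean of at least 50. Coordinates are of GENCODE M21 on GRCm38 (mm10), whose genes held 55141 of the 55487 identifiers. Sequences are of RefSeq. Overlapping genes are uncertain, since the use of strand is not known. Exact intervals of count ratios, and floors, cover counting error only, whereas 95% intervals of log2 fold changes are Wald intervals that include the spread between libraries. Between 24.9% and 28.0% of reads were not aligned.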

Additional observations from a re-analysis of the deposited data

Results flagged for a closer look

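The 54 combinations of 9 members and 6 groups were searched for a library far from the other 3 of its group. In *Bhlhe40*, BMAL1 replicate 3 had 173 normalized counts where the other BMAL1 libraries had 223 to 224. Also in *Bhlhe40*, BOTH replicate 3 had 180.2 where the others had 215 to 219. Chance would pick out about 1 in 20 groups, so that 2 of 54 is no more than chance gives.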

How the results depend on the processing

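The number of called members moved in these cases. In PAL against BSA it was 0 with the stricter filter, which leaves *Ciart* untested, and 0 to 2 with 1 library left out. In BOTH against CON it was 3 with total-count scaling (*Dbp*, *Nfil3*, *Tef*) and 1 to 2 with 1 library left out. For BOTH against CHREBP it was 0 with edgeR, 0 with the replicate block and 0 to 1 with 1 library left out. The interaction had 1 with all 24 libraries in 1 fit (*Nfil3*), and the likelihood ratio test 1 to 2 with 1 library left out. Where the cause is not in the setting's construction, the cause was not tested. The correlation of deviations of same-numbered libraries ran from -0.28 to 0.32 and was above 0.1 for every pair in no comparison, so the block rests on a shared number only, and it changed no other call of a member.

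Over all genes, the replicate block gave 1188 calls in PAL against BSA (1828 without it), 186 in CON against PAL (325) and 22 in BMAL1 against CON (68). With edgeR, BMAL1 against CON had 14, BOTH against CHREBP 53 (138 with DESeq2) and the interaction 122 (204). The 2 groups alone gave 144 for BMAL1 against CON and 80 for BOTH against CHREBP. Total-count scaling turned 831 higher and 520 lower in BOTH against CON to 696 and 762, 882 and 566 in BOTH against BMAL1 to 705 and 932, 23 and 45 in BMAL1 against CON to 33 and 41, and 403 and 127 in CHREBP against BMAL1 to 368 and 191. Depth limits *Hlf*, *Ciart* and *Bhlhe41* most. With 1 library left out, counts ran from 180 to 343 in CON against PAL (lowest without CON replicate 3), 16 to 107 in BMAL1 against CON, 56 to 217 in BOTH against CHREBP, 350 to 650 in CHREBP against BMAL1 and 104 to 291 for the interaction.

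The 4 called fold changes of members kept their sign in every alternative that tested them. Of all 81 fold changes of members, 30 that were not called, at most 0.281 in size, changed sign under at least 1 alternative (73 of 1764 values, 0 of them called). Total-count scaling gave -0.030 for *Ciart* in BOTH against CON, -0.015 for *Bhlhe40* in BOTH against CHREBP, -0.0024 for *Nr1d1* and -0.017 for *Tef* in CHREBP against BMAL1, and -0.011 for *Nr1d2* in the interaction, where the replicate block gave -0.021. The rest came from leaving out 1 library, and their log2 fold changes then ran over these ranges. In PAL against BSA they were -0.14 to 0.038 for *Nr1d2*, -0.25 to 0.23 for *Bhlhe41* and -0.014 to 0.40 for *Nr1d1*. In CON against PAL they were -0.31 to 0.10 for *Nr1d1*, -0.053 to 0.25 for *Dbp*, -0.18 to 0.028 for *Nr1d2*, -0.0044 to 0.18 for *Tef*, -0.12 to 0.0069 for *Bhlhe40* and -0.48 to 9.0e-05 for *Bhlhe41*. In BMAL1 against CON they were -0.12 to 0.026 for *Nfil3*, -0.12 to 0.42 for *Bhlhe41*, -0.21 to 0.098 for *Dbp*, -0.097 to 0.30 for *Nr1d1* and -0.18 to 0.0024 for *Tef*. In CHREBP against CON they were -0.11 to 0.33 for *Nr1d1*, -0.040 to 0.15 for *Nr1d2* and -0.17 to 0.012 for *Tef*. In BOTH against CON they were -0.31 to 0.31 for *Ciart*, -0.85 to 0.023 for *Bhlhe41* and -0.32 to 0.0015 for *Rora*. In BOTH against CHREBP they were -0.016 to 0.068 for *Bhlhe40*. In BOTH against BMAL1 they were -0.10 to 0.042 for *Bhlhe40* and -0.17 to 0.21 for *Nr1d2*. In CHREBP against BMAL1 they were -0.14 to 0.20 for *Nr1d1*, -0.045 to 0.048 for *Tef*, -0.11 to 0.0058 for *Bhlhe40*, -0.28 to 1.23 for *Ciart* and -0.30 to 0.0093 for *Rora*. In the interaction they were -0.23 to 0.14 for *Nr1d2* and -0.010 to 0.43 for *Nr1d1*.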
